A study of Mus musculus with 28 samples.

Results

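A set of 10 genes of pericytes and smooth muscle cells, the mural cells that wrap blood vessels, was followed in mouse thyroid and salivary gland. The cells were sorted into fractions with and without a histone label. The genes are Acta2, Myh11, Tagln, Cnn1 and Mylk, which belong to the contractile machinery, and Rgs5, Abcc9, Kcnj8, Notch3 and Pdgfrb, which mark pericytes. They were chosen by name as known markers of these cells, with earlier results of these data known, so that their counts below describe them and are no independent support. All 10 were found among the 47643 gene rows of every library, of which 17068 had a read in at least 1 library. Cells of H2B-GFP mice were sorted fresh, and RNA with a poly(A) tail was sequenced from its 3′ end, a method that reads 1 fragment near the end of each transcript. H2B-GFP is a fluorescent histone that dividing cells dilute and that slowly dividing cells retain. The thyroid groups were GFP+ and GFP- cells at 3 months (4 libraries each), at 6 months (4 each) and at 9 months (3 each), and the salivary gland groups were GFP+ and GFP- cells at 9 months (3 each). All groups carry the transgene. Its driver, the way the label was started and whether the replicates came from separate animals are not given in the sources used here, so every p-value below reflects the spread among these libraries alone.

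Pericytes sit on capillaries and share the basement membrane of the endothelium, while smooth muscle cells form contractile layers around arteries and veins. Endothelial cells secrete PDGF-B, which holds mural cells on the vessel through the receptor PDGFR-β, and endothelial Notch ligands act on NOTCH3 in mural cells. Contractile genes of smooth muscle are switched on together by serum response factor and its partner myocardin, which act through a DNA element called the CArG box. In the thyroid, a dense capillary net surrounds each follicle. Some contractile genes, Acta2 above all, are also used by myofibroblasts and by myoepithelial cells of glands.

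The promoters of 3 of the 10 genes are shown because they stand for 3 different courses in the data below: Acta2, a contractile gene whose GFP difference changed with age, Rgs5, a pericyte gene that was read in both fractions, and Abcc9, a pericyte gene whose pooled level in GFP+ cells was no lower at 9 than at 3 months. Each sequence runs from 250 bases before to 50 bases after the start listed by RefSeq (build GRCm38.p6, a later build than the mm9 named in the submitters' processing notes). Capitals mark a CArG box with 1 departing base or the letters TATAA, on either strand. The Acta2 promoter is at chr19:34255324-34255623 on the minus strand, the Rgs5 promoter at chr1:169655251-169655550 on the plus strand and the Abcc9 promoter at chr6:142702225-142702524 on the minus strand.
Acta2: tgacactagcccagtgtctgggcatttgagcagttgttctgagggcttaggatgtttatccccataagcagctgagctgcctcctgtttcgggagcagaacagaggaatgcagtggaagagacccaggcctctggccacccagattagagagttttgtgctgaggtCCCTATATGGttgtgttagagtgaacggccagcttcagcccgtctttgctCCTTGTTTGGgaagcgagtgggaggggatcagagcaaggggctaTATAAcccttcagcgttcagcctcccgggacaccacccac
Rgs5: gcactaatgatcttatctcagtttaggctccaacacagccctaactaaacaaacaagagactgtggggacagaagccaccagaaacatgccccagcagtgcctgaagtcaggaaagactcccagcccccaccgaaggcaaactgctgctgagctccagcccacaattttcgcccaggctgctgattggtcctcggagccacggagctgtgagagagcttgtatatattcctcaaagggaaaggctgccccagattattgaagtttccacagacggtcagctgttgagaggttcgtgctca
Abcc9: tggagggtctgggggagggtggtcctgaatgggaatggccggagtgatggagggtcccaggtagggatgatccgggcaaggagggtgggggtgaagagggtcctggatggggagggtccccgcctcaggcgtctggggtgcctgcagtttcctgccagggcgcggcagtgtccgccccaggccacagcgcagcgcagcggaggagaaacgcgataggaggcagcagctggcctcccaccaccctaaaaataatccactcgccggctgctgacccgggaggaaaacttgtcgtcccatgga
The Acta2 window held 2 CArG boxes with 1 departure each, CCCTATATGG starting at base -84 and CCTTGTTTGG starting at base -34, and 1 TATAA, and none of these matches overlapped. Of the 10 genes, 7 had a promoter in the table, and Acta2 was the only one of the 7 with a match to either motif. Among all 32851 promoters of the same length, 1.63% held an exact CArG box, 9.98% held one with at most 1 departure and 24.9% held TATAA. No match in a window says only that these letters are not in it. In the Acta2 window TATAA lay after the listed start, within the last 50 bases, and the CArG positions count from that listed start.

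The libraries were shallow. They held 507 to 209091 reads in genes, 2263832 in all, and 6 of the 28 had fewer than 10000. The 10 genes together had 1853 reads, from 655 for Rgs5 and 381 for Acta2 through 286 for Mylk, 191 for Abcc9, 119 for Myh11, 67 for Tagln, 63 for Notch3 and 61 for Pdgfrb to 21 for Kcnj8 and 9 for Cnn1. Levels are CPM over the reads in genes, and a pooled level divides the summed reads of a group by its summed reads in genes. A group with 0 reads allows up to 3 reads. In the edgeR fit of the 22 thyroid libraries, Acta2, Myh11, Tagln, Mylk, Rgs5 and Abcc9 passed the filter on low counts, and Cnn1, Kcnj8, Notch3 and Pdgfrb did not, so 6 of the 10 genes were tested among 1900. The filter asked for at least 123 CPM in 3 or more of the 22 libraries. Tagln reached it in 3 GFP+ and 0 GFP- libraries, Myh11 in 3 and 1, Abcc9 in 6 and 2, Mylk in 4 and 3, Acta2 in 8 and 3 and Rgs5 in 9 and 9. Tagln thus passed through GFP+ libraries alone, and Myh11 and Abcc9 would not have passed on their GFP- libraries, so that Tagln could be tested only because it was read in GFP+ cells. Called means an adjusted p under 0.05 by edgeR (quasi-likelihood test, Benjamini-Hochberg over all genes tested).

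**Figure D1:**
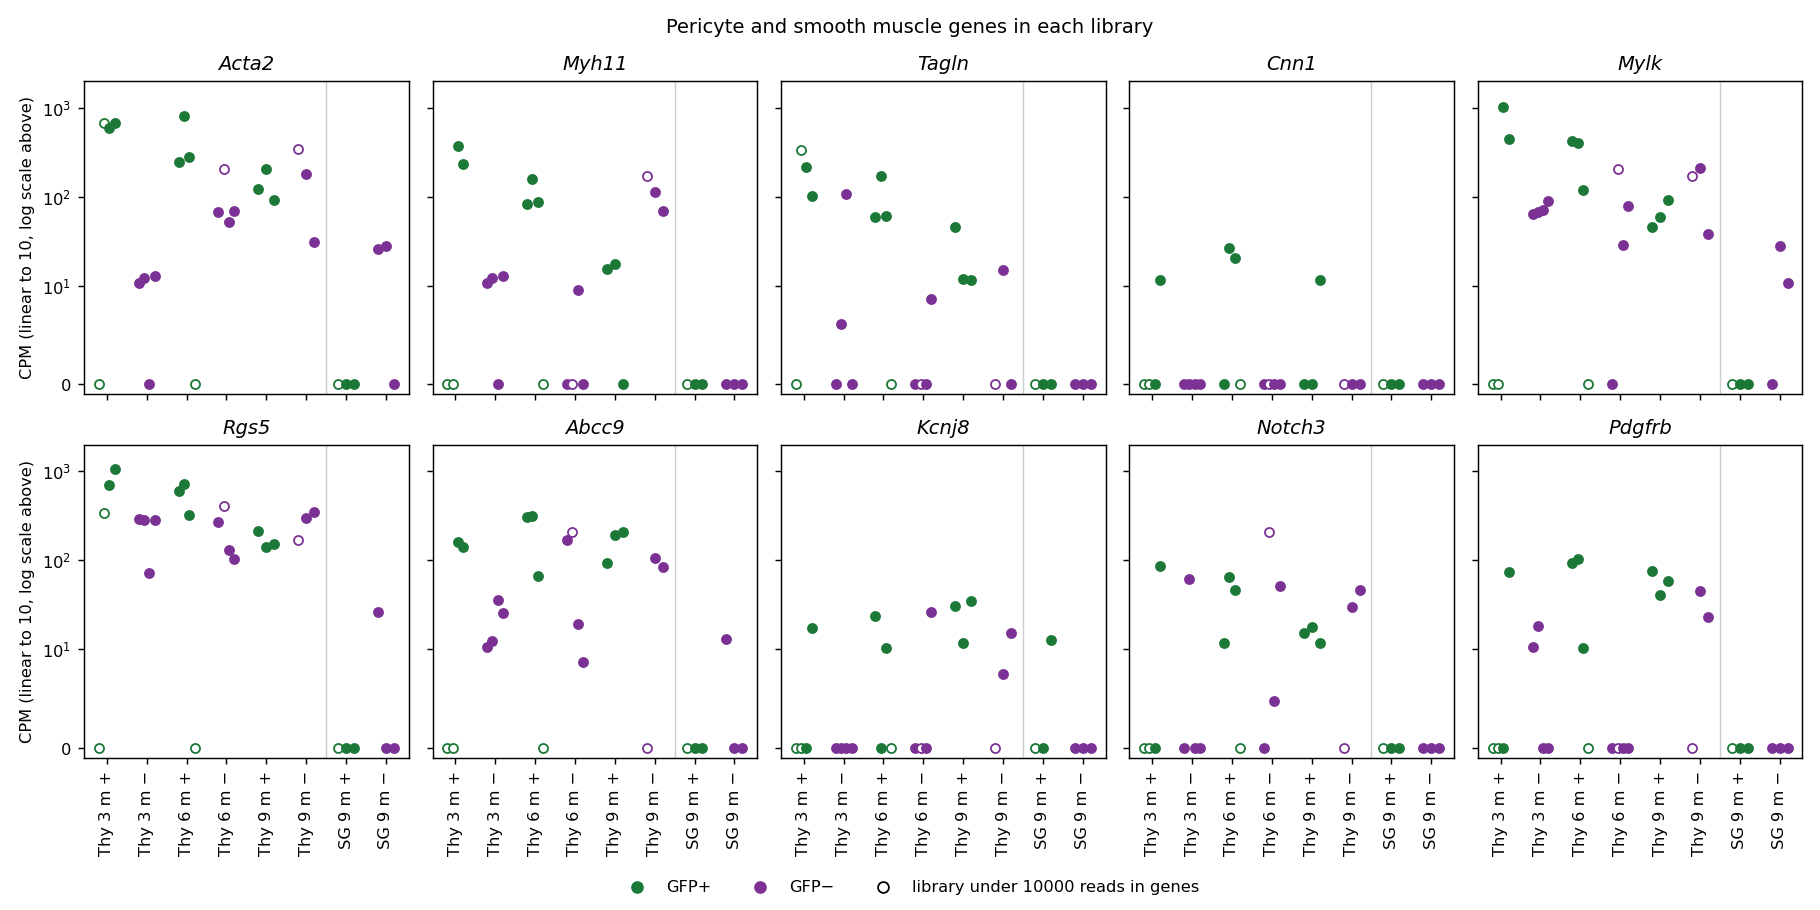
CPM of each of the 10 genes in each of the 28 libraries (y axis linear up to 10 and logarithmic above), by gland (Thy, thyroid; SG, salivary gland), months and GFP fraction (+ or −), with libraries under 10000 reads in genes drawn open. Acta2 lay at 590 to 678 CPM in 3 of the 4 GFP+ thyroid libraries at 3 months and at 12.8 CPM or less in the GFP- ones, and salivary libraries were at or near 0.

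Averaged over the 3 ages, 4 of the 6 tested genes were higher in GFP+ than in GFP- thyroid cells, against 20.2% of all tested genes called in either direction and 11.4% called higher. These were Acta2, the smooth muscle actin, with a log2 fold change of 2.51 (SE 0.44, adjusted p 4.69e-07, edgeR), Tagln, the actin-binding protein transgelin, with 2.70 (SE 0.73, adjusted p 0.00211), Abcc9, the sulfonylurea receptor subunit of a potassium channel, with 1.72 (SE 0.44, adjusted p 0.00105), and Mylk, the kinase that activates smooth muscle myosin, with 1.14 (SE 0.40, adjusted p 0.0258). Myh11, the smooth muscle myosin heavy chain, had 1.48 (SE 0.63, adjusted p 0.0821), and Rgs5, a regulator of G protein signalling that is a standard pericyte marker, had 0.46 (SE 0.37, adjusted p 0.468). Because of how Tagln, Myh11 and Abcc9 passed the filter, the count over the tested genes is a description. Acta2 and Mylk are the 2 called among Acta2, Mylk and Rgs5, but their GFP- libraries past the filter included shallow ones. These were 6-month replicate 2, with 1 read of each gene, and 9-month replicate 1, with 2 reads of Acta2 and 1 of Mylk. In sorted bulk RNA, a change in the number of mural cells and a change in RNA per cell cannot be told apart. The call for Mylk was lost without any 1 of 9 libraries (GFP+ 3-month replicate 3, GFP+ 6-month replicates 1 and 2, GFP+ 9-month replicates 1, 2 and 3, GFP- 6-month replicate 3, GFP- 9-month replicates 1 and 3 each gave an adjusted p between 0.0515 and 0.165), and Myh11 was called without GFP- 6-month replicate 3, at 2.25 (adjusted p 0.0402). Without GFP+ 3-month replicate 3 or GFP+ 6-month replicate 2, Tagln no longer passed the filter and the count was 2, Acta2 and Abcc9, while DESeq2 or its size factors in edgeR called Acta2 and Tagln, and no filter on low counts also ended the call for Mylk.

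The values differed between ages, as those of Acta2 show. At 3 months Acta2 had 0, 678, 590 and 674 CPM in GFP+ libraries 1 to 4, against 10.7, 12.2, 0 and 12.8 CPM in GFP- libraries 1 to 4. The 1 GFP+ library without an Acta2 read held 1562 reads in all, so that 3 of the 4 GFP+ libraries stood far above every GFP- library. At 6 months the gene had 247, 812, 281 and 0 CPM in GFP+ libraries, against 67.0, 206, 52.6 and 69.3 CPM in GFP- libraries. The GFP+ library at 0 held 507 reads, and the GFP- library at 206 CPM held 1 Acta2 read of 4845. At 9 months it had 123, 206 and 93.0 CPM in GFP+ libraries, against 340, 181 and 30.7 CPM in GFP- libraries, and the groups overlapped. Pooled over libraries, Acta2 was at 661, 386 and 159 CPM in GFP+ cells at 3, 6 and 9 months and at 11.03, 61.2 and 112 CPM in GFP- cells at the same ages.

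Myh11, whose product is the motor protein of mature smooth muscle, was read mostly in GFP+ cells at 3 and 6 months and mostly in GFP- cells at 9 months. At 3 months it had 0, 0, 376 and 234 CPM in GFP+ libraries, against 10.7, 12.2, 0 and 12.8 CPM in GFP- libraries. Both GFP+ libraries without a read held fewer than 10000 reads in genes. At 6 months it had 82.3, 157, 87.0 and 0 CPM in GFP+ libraries, against 0, 0, 9.57 and 0 CPM in GFP- libraries. At 9 months it had 15.4, 17.6 and 0 CPM in GFP+ libraries, against 170, 113 and 69.1 CPM in GFP- libraries, so that every GFP- library was above every GFP+ library. The GFP+ values at 9 months rest on 4 reads and the GFP- values on 25, of which 15 were in 1 library. The GFP- value of 170 CPM was 1 read in a library of 5884 reads. The share of all genes whose libraries separate in this way was not computed. The pooled ratio of GFP+ to GFP- was 21.7 at 3 months (95% interval 7.93 to 82.7, counting error only) and 0.134 at 9 months (0.0338 to 0.387).

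Tagln and Cnn1, the other actin-binding proteins of the contractile set, were read mostly in GFP+ cells. Tagln had 0, 339, 215 and 103 CPM in GFP+ libraries at 3 months, against 0, 6.11, 107 and 0 CPM in GFP- libraries. At 6 months Tagln had 58.8, 170, 61.4 and 0 CPM in GFP+ libraries, against 0, 0, 0 and 8.66 CPM in GFP- libraries. At 9 months it had 46.1, 11.7 and 11.6 CPM in GFP+ libraries, against 0, 15.1 and 0 CPM in GFP- libraries. At 3 months 1 GFP- library reached the range of the GFP+ libraries, and at 6 months 3 GFP+ libraries stood above all GFP- libraries. GFP+ libraries at 9 months held 6 Tagln reads and GFP- libraries 2. Cnn1, which encodes calponin, had 9 reads in all, every one in GFP+ thyroid cells, namely 2 at 3 months, 6 at 6 months and 1 at 9 months. Its absence from the GFP- libraries allows at most 8.27, 8.35 and 11.2 CPM at 3, 6 and 9 months. Annotation of build GRCm38 places another gene, Pcsk7, on the opposite strand over the 3′ end of Tagln. Pcsk7 had 6 reads in all libraries, and the strand used in counting is not given in the sources used here.

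Mylk was read in both fractions at every age. At 3 months it had 0, 0, 1019 and 440 CPM in GFP+ libraries, against 64.3, 67.3, 71.5 and 89.7 CPM in GFP- libraries. At 6 months it had 423, 406, 118 and 0 CPM in GFP+ libraries, against 0, 206, 28.7 and 78.0 CPM in GFP- libraries. At 9 months it had 46.1, 58.7 and 93.0 CPM in GFP+ libraries, against 170, 211 and 38.4 CPM in GFP- libraries, with the 2 groups overlapping. Mylk is also used outside smooth muscle, since it encodes long and short kinase forms. In the annotation of build GRCm38, Gm21691 lies on the opposite strand over the 3′ end of Mylk, and it was not among the gene rows.

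Rgs5 had the most reads of the 10 genes, and its fitted GFP difference was below those of Acta2, Myh11, Tagln and Mylk at 3 and 6 months, which was not tested between genes. At 3 months it had 0, 339, 697 and 1052 CPM in GFP+ libraries, against 289.5, 281, 71.5 and 282 CPM in GFP- libraries. At 6 months it had 599, 721, 327 and 0 CPM in GFP+ libraries, against 268, 413, 129 and 104 CPM in GFP- libraries. At 9 months it had 215, 141 and 151 CPM in GFP+ libraries, against 170, 301.6 and 353 CPM in GFP- libraries. The 9-month groups overlapped only through the shallow GFP- library at 170 CPM, which held 1 Rgs5 read. The pooled ratio of GFP+ to GFP- was 3.70 (95% interval 2.89 to 4.77), 3.49 (2.52 to 4.89) and 0.490 (0.340 to 0.700) at 3, 6 and 9 months, with intervals that cover counting error only.

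Abcc9 and Kcnj8 encode the 2 subunits of the ATP-sensitive potassium channel of mural cells, and lie next to each other on chromosome 6. Abcc9 had 0, 0, 161 and 143 CPM in GFP+ libraries at 3 months, against 10.7, 12.2, 35.8 and 25.6 CPM in GFP- libraries. At 6 months Abcc9 had 305.6, 314.5, 66.5 and 0 CPM in GFP+ libraries, against 168, 206, 19.1 and 8.66 CPM in GFP- libraries. At 9 months it had 92.1, 194 and 209 CPM in GFP+ libraries, against 0, 106 and 84.5 CPM in GFP- libraries. Its pooled level in GFP+ cells was 139, 176 and 177 CPM at 3, 6 and 9 months. At 9 months its groups overlapped, since 1 GFP- library stood above the lowest GFP+ library. Kcnj8 had 3, 4 and 7 reads in GFP+ cells at 3, 6 and 9 months and 0, 3 and 3 reads in GFP- cells at the same ages, too few for a comparison.

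Notch3 and Pdgfrb are receptors that mural cells need to form and to stay on vessels. Notch3 had 15, 15 and 5 reads in GFP+ thyroid cells at 3, 6 and 9 months and 10, 8 and 10 in GFP- cells, with pooled levels of 74.6, 42.0 and 15.6 CPM in GFP+ cells and 27.6, 22.3 and 37.2 CPM in GFP- cells. All 15 of its GFP+ reads at 3 months came from replicate 4, and all 10 of its GFP- reads at that age from replicate 2. Pdgfrb had 13, 18 and 17 reads in GFP+ cells at 3, 6 and 9 months and 4, 0 and 9 in GFP- cells. Its pooled level in GFP+ cells was 64.7, 50.4 and 52.9 CPM. At 6 months this level was 6.03-fold the GFP- limit of 3 reads, a fold that leaves out the counting error of the 18 GFP+ reads. GFP+ replicates 1 to 4 held 8, 8, 2 and 0 of these reads. Neither gene passed the filter, and with no filter on low counts Pdgfrb was among the 4 genes called in the mean over the ages. Annotation of build GRCm38 places Gm17276, with 2 reads in all libraries, on the opposite strand over the 3′ end of Notch3.

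At 3 months Acta2, Myh11 and Mylk were called higher in GFP+ than in GFP- thyroid cells, 3 of the 6 tested genes, against 9.74% of all tested genes called and 5% called higher. The log2 fold changes were 5.02 for Acta2 (SE 0.83, adjusted p 9.53e-07, edgeR), 3.69 for Myh11 (SE 0.94, adjusted p 0.00271) and 2.18 for Mylk (SE 0.64, adjusted p 0.0120). Tagln at 2.78 (adjusted p 0.0840), Abcc9 at 2.35 (adjusted p 0.0565) and Rgs5 at 0.98 (adjusted p 0.348) did not pass. Because of how Myh11 passed the filter on low counts, the count of 3 is a description. Of the reads of the 10 genes in GFP+ cells at 3 months, 88.4% came from replicate 4, and only Acta2 was called without that library. The call for Mylk was also lost without GFP+ replicate 3 (adjusted p 0.170) or GFP- replicate 2 (0.0605), and Abcc9 was called without GFP+ replicate 1 (0.0444) or 2 (0.0301). Without GFP- replicate 3, which held 3 of the 4 Tagln reads of its group, 5 of the 6 genes were called, all except Rgs5. Without the libraries under 10000 reads, 5 were also called, all except Tagln, and settings that left only Acta2 included DESeq2, its size factors in edgeR and no filter on low counts.

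At 6 months 4 of the 6 genes were called higher in GFP+ cells, against 7.11% of all tested genes called and 5.26% called higher. The log2 fold changes were 4.10 for Tagln (SE 1.27, adjusted p 0.0219, edgeR), 3.66 for Myh11 (SE 1.06, adjusted p 0.0125), 2.30 for Acta2 (SE 0.67, adjusted p 0.0130) and 2.22 for Mylk (SE 0.69, adjusted p 0.0218). Rgs5 had 1.35 (adjusted p 0.222) and Abcc9 2.004 (adjusted p 0.0784). The count of 4 is a description, since Tagln passed the filter through GFP+ libraries alone and Myh11 mostly through them. None was called without GFP+ replicate 2, only Myh11 without GFP- replicate 3, and Mylk and Tagln without GFP- replicate 4. The call for Mylk was also lost without GFP+ replicate 1 (adjusted p 0.104) or GFP- replicate 1 (0.0754), and Abcc9 was called without GFP+ replicate 3 or 4 or GFP- replicate 1 or 2, at an adjusted p between 0.0117 and 0.0497. Without the libraries under 10000 reads all 6 were called, and settings that left none included DESeq2, its size factors in edgeR and no filter on low counts.

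At 9 months none of the 6 was called by edgeR, with 1.89% of all tested genes called, and Myh11 alone had an unadjusted p under 0.05. Its log2 fold change was -2.91 (SE 1.01, adjusted p 0.121). Mylk had -0.98, Rgs5 -0.95, Acta2 0.22, Abcc9 0.82 and Tagln 1.21, with adjusted p between 0.848 and 0.996. DESeq2 also called none.

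**Figure D2:**
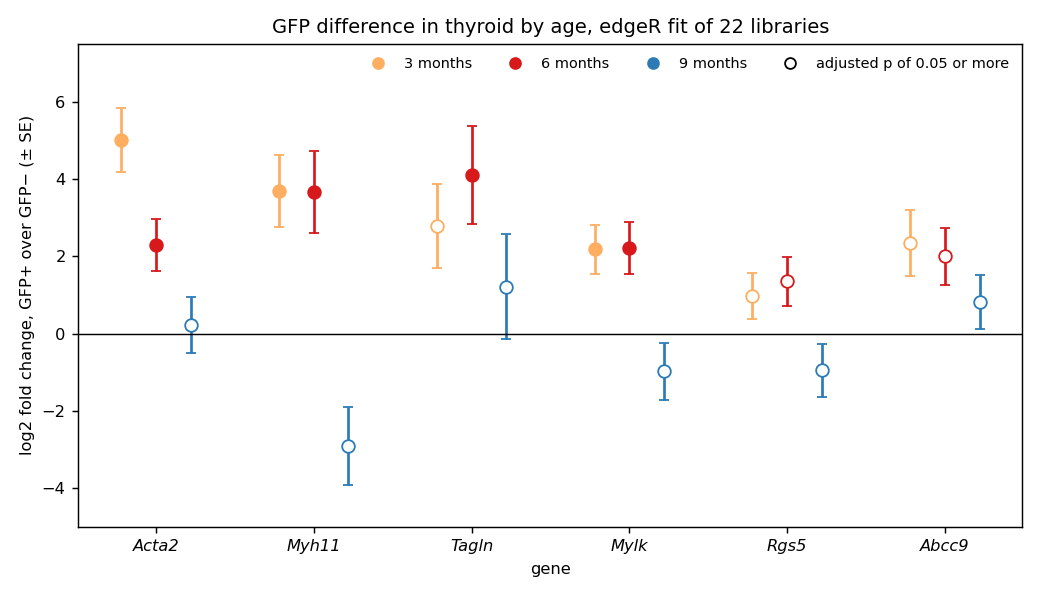
Log2 fold change of GFP+ over GFP− thyroid cells (y axis, with SE bars) for the 6 tested genes (x axis) at 3, 6 and 9 months, from the edgeR fit of 22 libraries, filled where the adjusted p was under 0.05. All 6 genes were above 0 at 3 and 6 months, and Myh11 lay at -2.91 at 9 months.

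The GFP difference of Acta2 and Myh11 was smaller at 9 than at 3 months. The change in the difference was -6.60 on the log2 scale for Myh11 (SE 1.38, adjusted p 0.00159, edgeR) and -4.80 for Acta2 (SE 1.13, adjusted p 0.0132). They were 2 of only 6 genes called among 1900 in this comparison, which is 0.316%, and 0.263% were called lower. This count is a description, since Myh11 passed the filter in 3 GFP+ and 1 GFP- libraries. Mylk had -3.16 (adjusted p 0.212), Rgs5 -1.93 (adjusted p 0.839), Tagln -1.57 and Abcc9 -1.53 (adjusted p 0.976 each). Both calls were lost without GFP- 9-month replicate 2 (adjusted p 0.132 for Myh11 and 0.828 for Acta2) and without GFP+ 3-month replicate 4 (0.156 for each). The call for Acta2 alone was lost without GFP- 3-month replicates 2 or 4 or GFP+ 9-month replicates 1, 2 or 3, at an adjusted p between 0.0517 and 0.206. Without the libraries under 10000 reads 4 genes were called, with -7.08 for Myh11, -5.001 for Acta2, -3.69 for Mylk and -2.59 for Rgs5, at an adjusted p between 0.00104 and 0.0304. Settings that ended these calls also included DESeq2, its size factors in edgeR and no filter on low counts, under which the changes lay between -6.26 and -5.97 for Myh11 and between -4.42 and -4.11 for Acta2.

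Each fraction was also compared with itself between ages. In GFP+ cells at 9 against 3 months, Myh11 fell by 3.73 on the log2 scale (SE 0.97, adjusted p 0.0209, edgeR) and Mylk fell by 2.52 (SE 0.69, adjusted p 0.0333), 2 of the 6 genes, against 0.947% of all tested genes called and 0.316% called lower. Acta2 had -1.63 (adjusted p 0.351), Rgs5 -1.76 (adjusted p 0.303), Tagln -2.46 (adjusted p 0.462) and Abcc9 0.64 (adjusted p 0.921). The count of 2 is a description, given how Myh11 passed the filter on low counts. Both calls were lost without any 1 of GFP+ 3-month replicates 3 and 4 and GFP+ 9-month replicates 1, 2 and 3, at an adjusted p between 0.0835 and 0.624. Settings that also ended them included DESeq2, its size factors in edgeR, no filter on low counts and all 28 libraries in 1 fit. Without the libraries under 10000 reads Rgs5 was called as well. In GFP- cells at 9 against 3 months none of the 6 was called by edgeR or DESeq2, with 0.684% of all tested genes called by edgeR. Acta2 had 3.17 (SE 0.92, adjusted p 0.0713), Myh11 2.87 (SE 0.98, adjusted p 0.172) and Abcc9 2.17 (SE 0.85, adjusted p 0.269), each with an unadjusted p under 0.05, and Acta2 was called without the libraries under 10000 reads, at 3.12 with an adjusted p of 0.0167. The comparisons of the GFP difference and of the fractions by age share libraries.

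The make-up of the reads of the 10 genes was compared by age within each fraction. The shares in GFP+ cells come first. Abcc9 was 4.99% of 561 reads at 3 months, 11.1% of 570 at 6 months and 25.9% of 220 at 9 months (exact 95% intervals 3.34 to 7.13%, 8.60 to 13.9% and 20.3 to 32.2%). Myh11 was 8.56%, 6.32% and 1.82% at the same ages, and Acta2 was 23.7%, 24.2% and 23.2%. The 5 contractile genes together were 54.0%, 52.6% and 37.7% of these reads. In GFP- cells the contractile genes were 24.5% of 155 reads, 36.6% of 112 and 40.4% of 225 at 3, 6 and 9 months, and Rgs5 was 62.6%, 43.8% and 38.7%. The intervals cover counting error only, and these shares were not tested over libraries. Without replicate 4, the contractile share in GFP+ cells at 3 months was 72.3% of 65 reads. The contractile share in GFP- cells at 9 months rests on replicate 2, without which it was 24.2% of 91 reads, close to the 24.5% at 3 months. The Myh11 share in GFP+ cells at 9 months was 0.990% of 101 reads without replicate 2, and the Acta2 share was 15.8%.

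**Figure D3:**
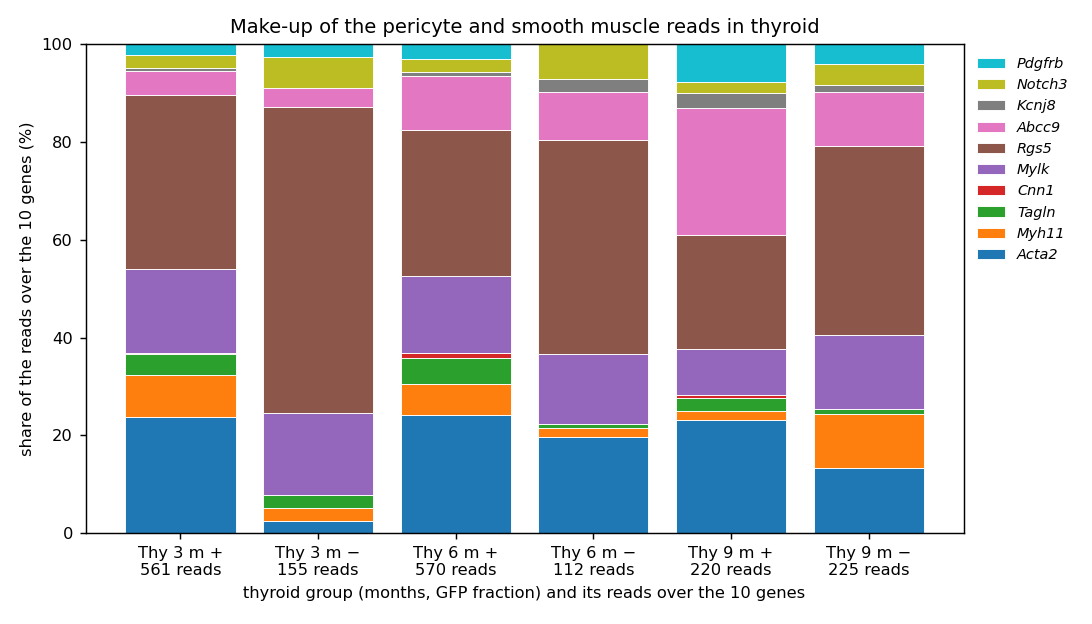
Share of the reads over the 10 genes (y axis, %) that each gene held in the 6 thyroid groups (x axis, with the number of reads; + and − are the GFP fractions). The Abcc9 band widened in GFP+ cells to 25.9% at 9 months, while Rgs5 was the widest band in GFP- cells at each age.

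Markers of other cells moved with the same sorts. Summed over the 8 fibroblast genes, pooled levels were 14653, 13075 and 17141 CPM in GFP+ cells at 3, 6 and 9 months and 1756, 1651 and 7510 CPM in GFP- cells. Most fibroblast reads were of Dcn, with 10301 over all libraries. All 8 fibroblast genes were called higher in GFP+ cells on average over the ages, against 11.4% of all tested genes. Among them were Col1a1, a collagen chain, at 2.46 (adjusted p 4.46e-08, edgeR), Dpt, the matrix protein dermatopontin, at 2.22, Pdgfra, the fibroblast PDGF receptor, at 2.26, and Lum, the matrix proteoglycan lumican, at 2.02. Summed over the 10 mural genes the pooled levels were 2790, 1595 and 685 CPM in GFP+ cells and 427, 311.8 and 837 CPM in GFP- cells. Per 1000 fibroblast reads this was 190, 122 and 39.9 mural reads in GFP+ cells and 243, 189 and 111 in GFP- cells, so mural reads were fewer per fibroblast read in the GFP+ than in the GFP- fraction at each age, a difference that was not tested. Without replicate 4 the GFP+ value at 3 months was 205. None of the 8 fibroblast genes was called in the change of the GFP difference from 3 to 9 months, and their median there was -0.85. The part of the fibroblast reads in the mural results was not tested.

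**Figure D4:**
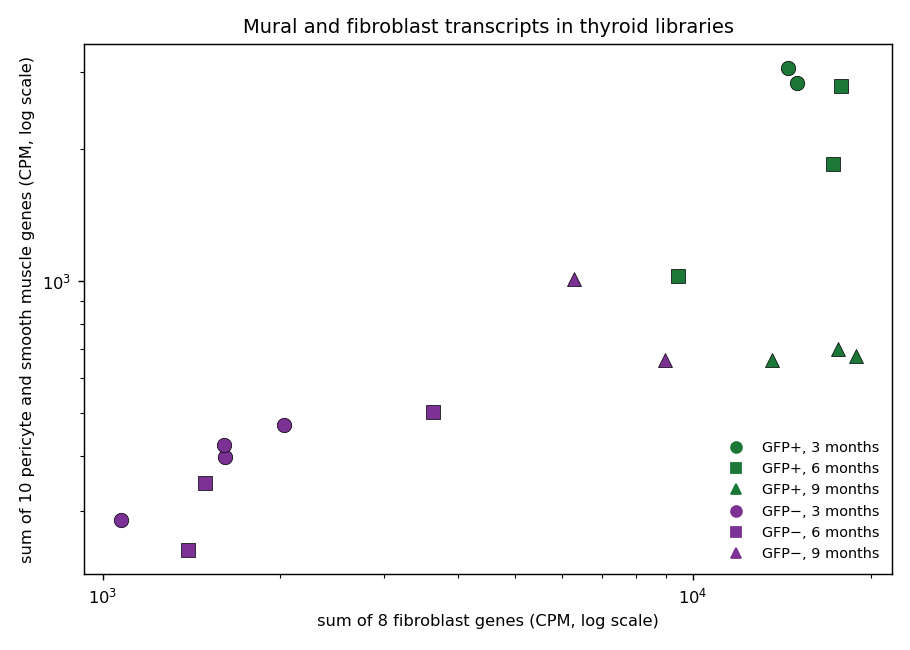
Sum of the 10 pericyte and smooth muscle genes (y axis, CPM, log scale) against the sum of the 8 fibroblast genes (x axis, CPM, log scale) in each thyroid library of at least 10000 reads in genes, coloured by GFP fraction and shaped by age. The 3 GFP+ libraries at 9 months lie at 660 to 699 CPM of mural genes, below the GFP+ libraries of 3 and 6 months, at 13592 to 18861 CPM of fibroblast genes.

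The summed mural genes, when pooled, were higher in GFP+ than in GFP- cells at 3 and 6 months but lower at 9 months. The order at 9 months rests on GFP- replicate 2, without which the pooled GFP- level was 669 CPM, against 685 CPM in GFP+ cells. Endothelial genes, summed in the same way, were lower in GFP+ cells at each age. All 7 had reads, and 6 of the 7 were called lower in GFP+ cells on average over the ages, against 20.2% of all tested genes called in either direction. The 6 were led by Esm1 at -6.72 and Kdr, the VEGF receptor, at -4.85 (adjusted p 1.23e-23 and 6.13e-18, edgeR), with Plvap at -4.08 and Emcn at -3.44. Their summed pooled level was 582, 285 and 218 CPM in GFP+ cells at 3, 6 and 9 months and 5637, 1985 and 2374 CPM in GFP- cells. Without replicate 4 the GFP+ level at 3 months was 383 CPM. The 5 myoepithelial and basal epithelial markers summed to 23.3, 300 and 845 CPM in the GFP+ libraries at 9 months, listed from low to high, against 0 to 45.2 CPM in the GFP- libraries, and to at most 35.3 CPM in GFP+ libraries at 3 and 6 months. Krt5, a basal keratin, made up 70 of the 108 reads of this list in GFP+ cells at 9 months, all 5 markers had reads there, and Krt5, Krt14 and Oxtr were at 0 in GFP+ cells at 3 months. The 7 skeletal muscle genes summed to 29.8, 0 and 0 CPM in GFP+ cells at 3, 6 and 9 months and to 77.2, 245 and 257 CPM in GFP- cells, with Acta1, the skeletal actin, at 0 in all GFP+ libraries. Their parts in the results for Acta2 and the other mural genes were not tested.

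Among the rest of the contractile machinery few genes were called. Of 26 other contractile genes 10 were tested, none was called higher in GFP+ cells on average over the ages, and 1, Csrp1, an actin-associated LIM protein, was lower at -1.41 (adjusted p 0.0193, edgeR). Of all tested genes 20.2% were called in either direction and 11.4% higher. At 3 months 1 of the 10 was higher, Tpm2, a tropomyosin of muscle and other cells that is named after its values were seen, at 2.79 (SE 0.90, adjusted p 0.0262). Its value was 0.45 averaged over the ages, and the change in its GFP difference was -3.88 (SE 1.28, adjusted p 0.296). At 6 and 9 months none of the 10 was called. Of 12 regulators of smooth muscle transcription 5 were tested, and Mef2c, a transcription factor of muscle and endothelium, was lower at -1.91 (adjusted p 9.17e-05). At 3 months Mef2c was again the only one of the 5 called, at -2.20 (adjusted p 0.0262), and at 6 and 9 months none was. Neither list had a gene called by edgeR in the change of the GFP difference.

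Other pericyte genes went both ways. Of 24 genes 5 were tested, and all 5 were called on average over the ages, against 20.2% of all tested genes called in either direction. Which fraction carried these genes past the filter was not examined, so this count is a description. Steap4, a metalloreductase used as a pericyte marker, was higher at 1.95 (adjusted p 0.00277, edgeR), Nr2f2, a nuclear receptor of venous and stromal cells, at 1.38 (adjusted p 0.00781) and Ebf1, a transcription factor of stromal and B cells, at 1.22 (adjusted p 0.00698). Ednrb, an endothelin receptor, was lower at -3.40 (adjusted p 1.30e-08), and Mcam, an adhesion molecule that mural cells share with endothelium, was lower at -1.75 (adjusted p 0.000588). At single ages Nr2f2 was called higher and Ednrb lower at 3 months, Steap4 and Ebf1 higher and Ednrb lower at 6 months, and none of the 5 at 9 months. Of all tested genes 9.74%, 7.11% and 1.89% were called at these ages. Mcam had pooled levels of 204, 112 and 18.7 CPM in GFP+ cells at 3, 6 and 9 months and 413, 192 and 70.7 CPM in GFP- cells. In the Notch pathway 3 of 17 genes were tested and none was called by edgeR, and the 2 with most reads were Hes1, a Notch target, at -0.25, and Adam10, the protease that cuts Notch receptors, at -0.27. In the PDGF pathway 2 of 11 genes were tested, and Pdgfra was called higher on average, as given above, as well as at 3 and 6 months, and neither gene was called at 9 months.

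Genes with the course most like that of Acta2 over the 17 thyroid libraries of at least 10000 reads were Vcam1, Myoc and Lgals1, with Pearson r of 0.89, 0.88 and 0.87 in log2 CPM. Those most like Rgs5 were Gm13889, Thbs1 and Flna, with r of 0.78, 0.74 and 0.71. Among the 6 tested mural genes, r was highest between Myh11 and Rgs5 at 0.83, and lowest between Mylk and Abcc9 at 0.34. The points are libraries of 6 groups that differ in depth, and these values are a description.

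In the salivary gland mural genes were nearly unread. GFP+ cells held 1 read of the 10 genes, for Kcnj8, among 92013 reads in genes, and GFP- cells held 9 among 301336, namely 3 for Acta2, 3 for Mylk, 2 for Rgs5 and 1 for Abcc9. A gene without a read in GFP+ salivary cells may lie at up to 32.6 CPM, and 1 of the 3 GFP+ libraries held 993 reads. Fibroblast genes summed to 0, 678 and 75.7 CPM in the GFP+ libraries and to 522, 693 and 15.9 CPM in the GFP- libraries, below every thyroid group at 9 months when pooled (152 CPM in GFP+ and 226 CPM in GFP- cells). The pooled GFP+ value was 74.8 CPM without replicate 2 and 625.6 CPM without replicate 3, and the GFP- value was 125 CPM without replicate 1 and 577 CPM without replicate 3. In the edgeR fit of the 12 libraries at 9 months, Acta2 and Rgs5 were 2 of 974 genes tested. Neither was called between GFP+ and GFP- salivary cells, where 0% of all tested genes were called and 96 had an unadjusted p under 0.05.

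Between the glands, Rgs5 was higher in GFP- thyroid cells than in GFP- salivary cells at 9 months, at 170, 301.6 and 353 CPM in thyroid libraries and 26.1, 0 and 0 CPM in salivary libraries. The log2 fold change was 3.56 (SE 1.03, adjusted p 0.00923, edgeR), and 14.2% of all tested genes were called and 9.86% called higher. Acta2 and Rgs5 reached the filter of this fit, 128 CPM, through thyroid libraries alone. No salivary library was above 27.7 CPM for either gene. The call for Rgs5 is therefore a description. The pooled ratio was 48.8, with a 95% interval of 13.1 to 409 that covers counting error only. The call was lost without thyroid replicate 3 or salivary replicates 2 or 3 (adjusted p between 0.0514 and 0.397) and with DESeq2, with its size factors in edgeR and with no filter on low counts. Acta2 had 1.56 (SE 1.03, adjusted p 0.370). In GFP+ cells neither gene was called by edgeR, with 14.4% of all tested genes called, although both had an unadjusted p under 0.05, and DESeq2 called Acta2, Rgs5 and Abcc9. The pooled level in GFP+ thyroid cells was 4.87-fold the salivary limit of 3 reads for Acta2 and for Rgs5 and 5.44-fold for Abcc9. These folds leave out the counting error of the thyroid reads. The difference between glands in the GFP difference was not called by edgeR for either gene, with 0% of all tested genes called and 86 at an unadjusted p under 0.05, or by DESeq2.

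The labelled tissues were checked against markers. All 5 thyrocyte markers had reads in GFP- thyroid cells at each age, where they summed to 3266 to 7198 CPM, against 398 to 3686 CPM in GFP+ cells, and Tg, thyroglobulin, was lower in GFP+ cells at -2.22 (adjusted p 8.66e-05, edgeR). The 4 parathyroid markers summed to 2795 to 41197 CPM in GFP+ and 16274 to 59664 CPM in GFP- thyroid cells, and Gata3 and Pth were both lower in GFP+ cells, at -1.63 and -1.57 (adjusted p 0.00345 and 0.00715), so the sorted thyroid cells held parathyroid RNA. Most reads of the thyrocyte and parathyroid lists were of Tg and of Pth, with 6649 and 52461 over all libraries. Macrophage markers summed to at most 219 CPM and glial markers to at most 89.5 CPM in a thyroid group, and neither of these 2 lists had a tested gene. Salivary markers were not among the lists.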

How the data were processed

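The authors deposited 1 table of raw read counts per gene for each of 28 libraries, with 47643 gene rows and 5 summary rows. Per the labels' protocols, polyA RNA from RNeasy columns, with DNase I, went into QuantSeq 3′ libraries. Per the submitters' processing notes, bcl2fastq was used and the build was mm9. The aligner, counter and annotation are not given in the sources used here. Summary rows stayed out of library sizes (no feature 13.3 to 85.8% of reads, ambiguous at most 0.426%). Symbols came from a GENCODE vM21 name table (47224 identifiers matched, 419 did not). None of 36 same-group library pairs held identical counts.

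Tests used edgeR 4.0.16 in R 4.3.3 (filterByExpr with a minimum of 10 and a total of 15, TMM, robust quasi-likelihood fits, Benjamini-Hochberg at 0.05). The 22 thyroid libraries entered 1 fit of 6 groups, and the 12 libraries at 9 months another of 4 groups. TMM factors were 0.574 to 10.7 and 0.232 to 7.11. SE is the fold change divided by the square root of F. CPM values are without TMM. Intervals and limits (3 reads for a count of 0) cover counting error only. Likeness used log2 CPM with a prior count of 2 over the tested genes, leaving out the 10 members. Alternatives were DESeq2 1.42.0, its size factors, no filter, all 28 libraries in 1 fit, a replicate block, no libraries under 10000 reads and leaving out each library. Scripts were tested on simulated data. The members and gene lists were chosen with earlier results of these data known. All 10 members are named, and from each other list up to 4 called genes by adjusted p, or the up to 2 with most reads. Dcn is named for its share of the fibroblast reads.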

Additional observations from a re-analysis of the deposited data

Results flagged for a closer look

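The change of the GFP difference from 3 to 9 months was called by edgeR for Acta2 (-4.80 on the log2 scale, adjusted p 0.0132) and for Myh11 (-6.60, adjusted p 0.00159), and rests on few libraries, as given above.

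Single libraries stood apart from the other 3 of their group in 14 of 36 gene and group combinations by Dixon's test at 95%. Chance flags about 1 in 20 groups of continuous values, a rate that does not hold for counts of few reads in libraries of unequal depth, so nothing is read from the number 14. In 8 of the 14, 3 libraries were at 0 and 1 was not, which the test marks whatever the value. In GFP+ cells at 3 months, replicate 4 stood high for Cnn1 (11.4 CPM), Kcnj8 (17.1 CPM), Notch3 (85.7 CPM) and Pdgfrb (74.3 CPM), each with 0 in the other 3, and replicate 1 stood low for Acta2 (0 CPM). A count of 0 in replicates 1, 2 and 3 of that group allows up to 1921, 509 and 161 CPM, above each of the 4 values of replicate 4. The limit of replicate 1 is also above the 590 to 678 CPM of Acta2 in replicates 2 to 4. In GFP- cells at 3 months, replicate 3 stood low for Acta2 (0 CPM), Myh11 (0 CPM) and Rgs5 (71.5 CPM) and high for Tagln (107 CPM), and replicate 2 stood high for Notch3 (61.1 CPM). A count of 0 in this replicate 3 allows up to 107 CPM. That is above the 10.7 to 12.8 CPM of Acta2 and of Myh11 in the other libraries of the group. In GFP- cells at 6 months, replicate 2 stood high for Acta2 (206 CPM, from 1 read), replicate 3 for Myh11 (9.57 CPM) and replicate 4 for Tagln (8.66 CPM) and Kcnj8 (26.0 CPM).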

How the results depend on the processing

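Counts of called mural genes moved with the processing, and no setting except leaving out a library reversed a sign. DESeq2 gave 2 for the mean GFP difference, 1 at 3 months, 0 at 6 months, 0 for its change with age, 0 for age in GFP+ cells, and 3 (GFP+) and 0 (GFP-) between glands. DESeq2 size factors in edgeR gave 2, 1, 0, 0, 0, 2 and 0 in the same order, and put the median of all tested genes at -0.59 at 3 months (-0.26 with TMM) and at 0.89 for the change with age (0.29 with TMM). No filter gave 1 at 3 months and 0 at 6 months, for the change, for age in GFP+ cells and for GFP- cells between glands. All 28 libraries in 1 fit gave 0 for age in GFP+ cells and 1 for GFP+ cells between glands. Without libraries under 10000 reads the counts were 5 at 3 months, 4 for the change and 1 for age in GFP- cells. The cause was not tested.

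The replicate block gave 2 for the mean, 1 at 3 months and 0 at 6 months, for the change and for age in GFP+ cells. The labels state no pairing of the fractions. After the group means were taken off, same-numbered libraries had r above 0.1 in 3 of 11 thyroid pairs and 2 of 3 salivary pairs. Libraries of different numbers were not compared, so these values cannot settle whether the numbers pair the fractions.

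Leaving out 1 library gave 2 to 4 for the mean, 1 to 5 at 3 months, 0 to 5 at 6 months, 0 at 9 months, 0 to 2 for the change, 0 to 2 for age in GFP+ cells and 0 to 1 for GFP- cells between glands. No called value reversed. Uncalled ones that did were Rgs5 for age in GFP- cells (-0.14 to 0.39 over the libraries left out, with -0.14 without GFP- 9-month replicate 3 and -0.04 without GFP- 3-month replicate 3), Tagln for the same (-3.37 to 0.99, 0.99 without GFP- 3-month replicate 3), Mylk for the same (-0.63 to 1.18), Mylk at 9 months (-1.36 to 0.44) and Tagln for the change (-3.45 to 1.15), all 3 crossing 0 without GFP- 9-month replicate 2, and Acta2 at 9 months (-0.25 to 1.33, with -0.25 without GFP- replicate 3 and -0.21 without GFP+ replicate 2). Depth limits Cnn1, Kcnj8, Notch3 and Pdgfrb to descriptions.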
